A study of Caenorhabditis elegans with 2 samples.

Results

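The genes described here encode the subunits of the proteasome of Caenorhabditis elegans. They were chosen by symbol, as the protein-coding genes of the nuclear chromosomes whose names begin with pas-, pbs-, rpt- or rpn-, which gave 33 of 19973 genes. The core particle accounted for 14 of them, with 7 pas genes for the alpha rings and 7 pbs genes for the beta rings, and the regulatory particle for 19, with 6 rpt genes for its ATPases and 13 rpn genes for its other subunits. The genes lay on 5 of the 6 nuclear chromosomes, with 10 on I, 7 on II, 8 on III, 3 on IV, 5 on V and 0 on X.

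The proteasome degrades proteins that carry ubiquitin chains. Its core particle is a barrel of stacked rings whose beta subunits hold the protease sites on the inside and whose alpha rings gate the entrance, and the regulatory particle binds the ubiquitin chain, removes it and threads the unfolded protein into the barrel with its ring of ATPases. In worms the proteasome genes are transcribed from scattered loci, many of them under the transcription factor SKN-1A, and proteasomes also act in the germ line, where REC-8, the meiotic kleisin of the cohesin complex, holds sister chromatids together.

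The binding of REC-8 was measured by chromatin immunoprecipitation and sequencing in young adult hermaphrodites of strain YL581, whole animals collected 50 hours after they were synchronized as starved L1 larvae. The line carries a transgene for REC-8 with GFP and FLAG at its C-terminus, precipitated through GFP according to one label, while the antibody label gives rec-8, and sonication sheared the chromatin. The samples are 2 biological replicates of 1 group, each with a protocol document of its own, so no second condition exists to compare them with, and neither the control that the labels name nor worms without the tag are analysed here. Whole worms mix germ line and somatic cells, and signal from the various cells cannot be told apart.

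The deposited peak lists held 10019 peaks for both replicates pooled, 17532 for replicate 1 and 14069 for replicate 2, all on build ce11. A stricter list, thresholded by the authors on how well peak ranks repeated, held the 739 strongest pooled peaks. The signal printed for a peak is the value of the peak caller, on a scale of its own in every list, so ranks are given beside it, with rank 1 the strongest. The median nuclear peak had a signal of 48.5 in the pooled list, 25.0 in replicate 1 and 24.9 in replicate 2, and the weakest thresholded peak had 92.8. A gene was counted as having a peak when a summit lay from 1000 bp upstream to 500 bp downstream of one of its transcript starts. Depth is unknown, each value is a single value with no error of its own, and a gene without a listed peak is not shown to lack signal.

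Peaks were listed at the starts of core and regulatory genes alike, at a larger share of the proteasome genes than of protein-coding genes at large. Most of those in the pooled list had a signal below its median of 48.5. The lowest, of 41.3, was close to the weakest peak of the pooled list, at 39.9. In the pooled list 11 of 33 proteasome genes (33.3%) had a summit, against 21.0% of all protein-coding genes. In replicate 1 the share was 15 of 33 (45.5%), against 31.0%, and in replicate 2 it was 16 of 33 (48.5%), against 26.6%. A summit in both replicates was found at 9 genes (27.3%), against 15.6%, and in 7 of these (21.2%) the peaks of the replicates overlapped, against 13.1% of all genes. No summit in any of the 3 lists was found at 11 genes (33.3%), against 57.6%. All 33 genes are autosomal. Over autosomal protein-coding genes alone the shares were 22.2% pooled, 32.4% in replicate 1, 27.7% in replicate 2, 16.7% in both replicates and 56.1% in none. These shares are descriptions without a test, and the proteasome genes sit closer to other genes than most, as given with their neighbours.

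**Figure D1:**
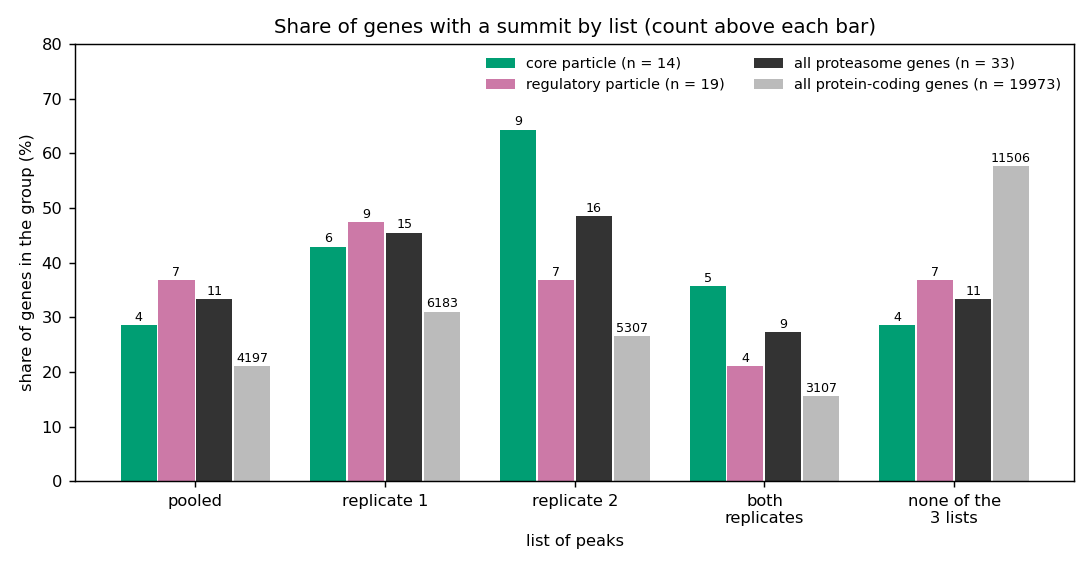
Share of genes (y axis, %) with a summit in the window by list (x axis), for the 14 core genes, the 19 regulatory genes, all 33 proteasome genes and all 19973 protein-coding genes, with the number of genes above each bar. The proteasome bars stand at 33.3%, 45.5% and 48.5% in the pooled, replicate 1 and replicate 2 lists, above 21.0%, 31.0% and 26.6% for all genes, and the core and regulatory bars change order between the replicates.

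Few of these peaks were strong. On the thresholded list 1 of 33 proteasome genes had a summit (3.03%, rpn-3), against 2.35% of all genes, a share near the background. Among the 739 strongest peaks of replicate 1 the count was 1 (rpn-3), against 2.33% of all genes, and among those of replicate 2 it was 2 (pas-5 and rpn-3), against 2.20%. The best pooled signal had a median of 47.1 over the 11 proteasome genes with a summit, against 51.4 over the 4197 protein-coding genes with one, and the median rank was 5572 against 4049. In the replicates the order was the other way, with a median rank of the best peak of 6212 against 7099 in replicate 1 and of 3501 against 5872 in replicate 2.

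Core and regulatory genes did not keep an order across the lists. In the pooled list 4 of 14 core genes (28.6%) and 7 of 19 regulatory genes (36.8%) had a summit. Replicate 1 had 6 core (42.9%) and 9 regulatory genes (47.4%), and replicate 2 had 9 core (64.3%) and 7 regulatory genes (36.8%). Of the 7 genes with overlapping peaks in both replicates, 4 were core (pas-2, pas-5, pbs-5, pbs-7) and 3 regulatory (rpn-3, rpn-8, rpn-12). Within the regulatory particle the ATPases had 4 of 6 in replicate 1, 1 of 6 in replicate 2 and 1 of 6 in the pooled list. The other subunits had 5, 6 and 6 of 13. The shares over all protein-coding genes were 31.0%, 26.6% and 21.0%, and counts of 6 genes are too few to be read as a difference between replicates. The best pooled signal had a median of 47.7 over the core genes with a summit and 45.9 over the regulatory ones.

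**Figure D2:**
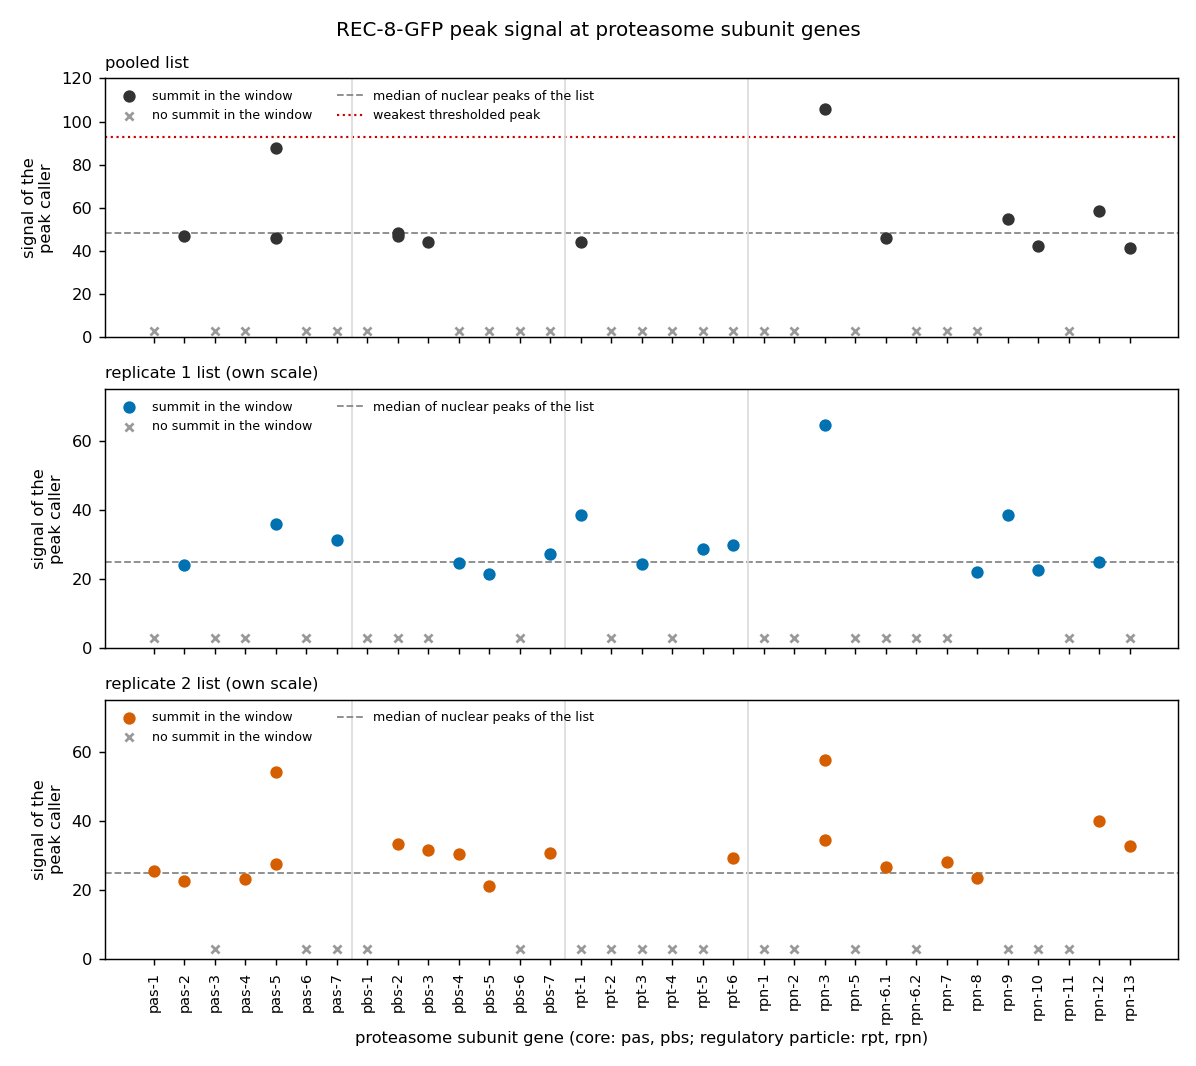
Signal of every summit in the window of each proteasome gene (y axis, units of the peak caller, a separate scale for each list) in the pooled list (top), replicate 1 (middle) and replicate 2 (bottom), with grey crosses for genes without a summit, dashed lines at the median nuclear peak and a dotted line at the weakest thresholded peak (92.8). In the pooled list rpn-3 (106) lies above the dotted line, pas-5 (88.0) just below it, and most others near or below the dashed line at 48.5.

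Among the subunits of the lid of the regulatory particle, rpn-3 had the strongest peak of the whole group. rpn-3 (WBGene00004460, III, 8447353 to 8449346, plus strand) encodes a scaffold subunit of the lid. Its pooled summit at 8447081 on III, 272 bp upstream of the start, had a signal of 106 and rank 543 of 10019. Replicate 1 had a signal of 64.6 (rank 393) with the summit 264 bp upstream. Replicate 2 had overlapping peaks, one of signal 57.6 (rank 493) 460 bp upstream and one of 34.4 (rank 2097) 254 bp upstream. So the stronger replicate 2 summit lay 196 bp from that of replicate 1, and the weaker one 10 bp from it. The gap of 443 bp between rpn-3 and the divergent gene hsp-110, which encodes a chaperone of the Hsp110 family, holds the pooled summit, and the start of hsp-110 was the nearer one at 172 bp. The stronger replicate 2 summit lay in the 5′ UTR of hsp-110, 16 bp from its start. The pooled summit also lay inside the small ncRNA gene C30C11.14 on the minus strand, so hsp-110, rpn-3 and this RNA gene share the peak.

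The lid genes rpn-12, rpn-9 and rpn-6.1 had weaker peaks. rpn-12 (WBGene00004468, II, 11653124 to 11654192, plus strand) had a pooled signal of 58.7 (rank 2533) in an intron, 338 bp past the start. Replicate 1 gave 25.0 (rank 8723) at 440 bp past the start, and replicate 2 gave 40.0 (rank 1255) at 334 bp, so the peak ranked far higher in replicate 2. All of these summits were in reach of the divergent gene rad-23 too, which encodes a shuttle that brings ubiquitinated proteins to the proteasome, with the pooled summit 733 bp upstream of the rad-23 start. rpn-9 (WBGene00004465, II, 11237447 to 11238919, minus strand) had a pooled signal of 54.8 (rank 3215) 218 bp upstream and 38.7 (rank 1681) in replicate 1 at 224 bp upstream, while replicate 2 had no summit in the window. Its gap of 677 bp to the divergent gene T06D8.9 holds the peak, 460 bp from the start of T06D8.9. rpn-6.1 (WBGene00004462, III, 6959110 to 6962001, minus strand), a lid subunit that clamps the lid to the core, had 45.9 (rank 6156) in the pooled list and 26.6 (rank 5524) in replicate 2, and no summit of replicate 1 in the window. The pooled summit lay 467 bp upstream of the start of the shorter transcript, in an intron of the longer one, and 683 bp from the start of F57B9.1. A stronger peak sat at the other end of rpn-6.1, 7 bp from the gene end in the 3′ UTR, with 73.3 (rank 1308) in the pooled list, 46.7 (rank 925) in replicate 1 and just 21.0 (rank 12311) in replicate 2.

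To let the summits be compared by sequence, 200 bp centred on the pooled summit are printed for 5 genes, 5′ to 3′ on the plus strand of WBcel235 (RefSeq), summit at position 101. Capitals mark the motifs TGTCAT (searched with TATCAT as the letters of SKN-1 sites), TTCNNGAA (paired units of a heat shock element) and TGCGTCT, each on both strands, none overlapping another here. The fifth window belongs to pas-2 (WBGene00003923, V, 10770368 to 10771351, plus strand), an alpha ring gene with a pooled signal of 47.1.
rpn-3, chrIII:8446981-8447180: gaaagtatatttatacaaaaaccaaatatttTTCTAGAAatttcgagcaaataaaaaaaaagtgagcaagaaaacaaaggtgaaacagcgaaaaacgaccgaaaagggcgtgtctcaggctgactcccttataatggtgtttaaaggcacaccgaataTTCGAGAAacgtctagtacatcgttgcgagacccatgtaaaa
rpn-12, chrII:11653362-11653561: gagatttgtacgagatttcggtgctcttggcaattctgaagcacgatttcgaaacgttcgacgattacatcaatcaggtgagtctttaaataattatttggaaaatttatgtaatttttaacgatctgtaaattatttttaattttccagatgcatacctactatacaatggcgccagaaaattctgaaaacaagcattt
rpn-9, chrII:11239037-11239236: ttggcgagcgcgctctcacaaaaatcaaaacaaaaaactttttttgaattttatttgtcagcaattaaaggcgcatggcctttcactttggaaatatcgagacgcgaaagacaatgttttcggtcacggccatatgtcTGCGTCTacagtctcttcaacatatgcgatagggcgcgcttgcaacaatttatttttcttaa
rpn-6.1, chrIII:6961307-6961506: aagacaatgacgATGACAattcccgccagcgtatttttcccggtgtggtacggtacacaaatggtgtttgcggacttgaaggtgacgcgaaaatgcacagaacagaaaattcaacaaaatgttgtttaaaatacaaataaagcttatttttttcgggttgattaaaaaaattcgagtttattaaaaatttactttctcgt
pas-2, chrV:10770584-10770783: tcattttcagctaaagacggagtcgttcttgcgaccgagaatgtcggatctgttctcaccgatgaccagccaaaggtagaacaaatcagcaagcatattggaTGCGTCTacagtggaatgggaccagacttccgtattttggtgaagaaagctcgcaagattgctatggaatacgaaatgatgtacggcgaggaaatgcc
The rpn-3 window holds TTCTAGAA at positions 32 to 39 and TTCGAGAA at 159 to 166, one on each side of the summit. The windows of rpn-9 and pas-2 hold TGCGTCT at 139 to 145 and 103 to 109. The rpn-6.1 window holds TGTCAT on the minus strand at 13 to 18, and the rpn-12 window, with a GC content of 32.5%, holds none of the 4 motifs.

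Over all 13 pooled summits at proteasome genes, TATCAT or TGTCAT stood in 2 windows (15.4%), against 17.0% of all 10013 nuclear pooled summits. TGTCAT by itself stood in 2 (15.4%), against 8.61%, and TATCAT in 1 (7.69%), against 9.28%. TTCNNGAA stood in 4 (30.8%), against 12.5%, at rpn-3, pbs-2, rpn-10 and rpt-1, and TGCGTCT in 2 (15.4%), against 3.46%. The last pair of motifs was chosen after the letters of these windows had been seen, so their shares are descriptions of the windows that led to them. The median GC content was 41.0% in the proteasome windows and 39.0% over all pooled summits. In the 250 bp before the gene start, TGTCAT stood at 9 of 33 proteasome genes (27.3%), against 12.5% of all genes, and TATCAT at 4 (12.1%), against 16.5%. One or the other stood at 12 (36.4%), against 26.8%. TTCNNGAA stood before 3 genes (pas-1, rpn-3 and rpt-3), 9.09% against 15.0%, and TGCGTCT before 0 of 33, against 4.27%. A match of letters does not show a bound site, and a window without one shows only that these letters are not in it.

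**Figure D3:**
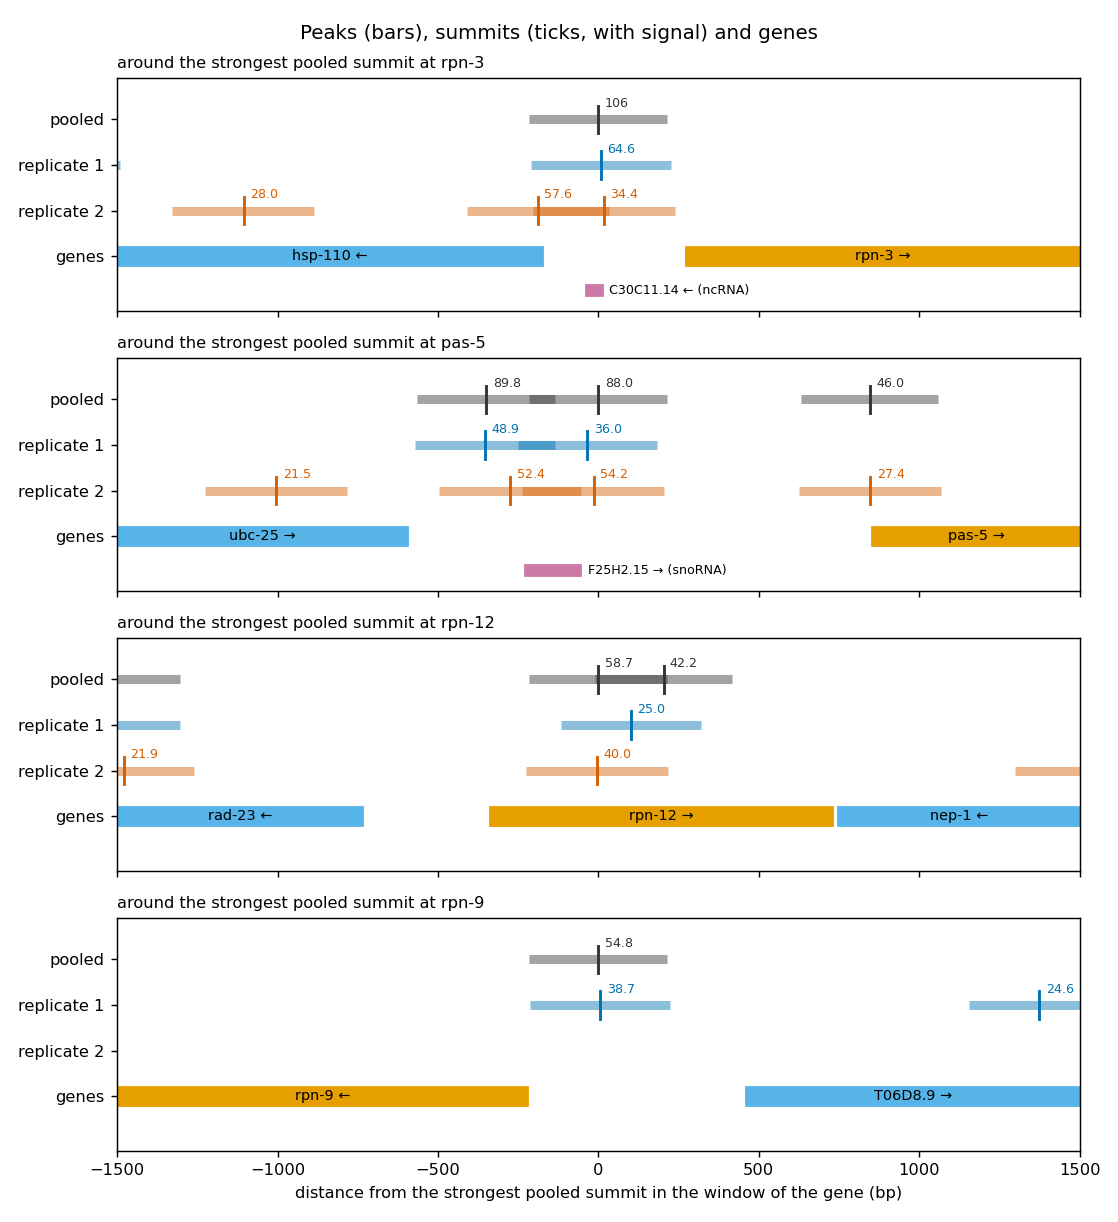
Peaks (bars), summits (ticks with the signal) and genes around the strongest pooled summit at rpn-3, pas-5, rpn-12 and rpn-9, by list (rows) and distance from that summit (x axis, bp). Arrows give the strand of each gene. The rpn-3 and rpn-9 summits lie between divergent genes, the rpn-12 summit lies inside the gene, and the pas-5 summit of 88.0 lies next to a snoRNA gene.

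The remaining rpn genes had window peaks of at most 42.2 in the pooled list, or none. rpn-10 encodes a ubiquitin receptor of the particle (WBGene00004466, I, 10730712 to 10732424, minus strand). Its pooled signal was 42.2 (rank 8262) 155 bp past the start, with 22.7 (rank 12032) in replicate 1 at 206 bp and no summit of replicate 2 in the window. A stronger pooled peak of 64.9 (rank 1841) lay in its intron, 1073 bp past the start. rpn-8 (WBGene00004464, I, 4175319 to 4177271, plus strand), the partner of the deubiquitinase RPN-11, had no pooled summit but overlapping peaks of 22.0 (rank 13218) and 23.5 (rank 8618) in replicates 1 and 2, at 81 and 29 bp past its start. These weak peaks were in reach of mrps-6 too, a divergent gene for a mitochondrial ribosomal protein, 626 bp away in replicate 1. rpn-13, another ubiquitin receptor gene, had a pooled signal of 41.3 (rank 8931) 798 bp upstream and 32.7 (rank 2526) in replicate 2, inside an intron of C56G2.9. The lid gene rpn-7 had a summit in replicate 2 alone, of 28.2 (rank 4430), in the 5′ UTR of its divergent neighbour F49C12.9. The base scaffolds rpn-1 and rpn-2, the lid genes rpn-5 and rpn-6.2 and the deubiquitinase gene rpn-11 had no summit in the window in any of the 3 lists. rpn-5 is divergent from scc-1, the gene of the mitotic kleisin, across 293 bp, and neither gene had a pooled summit.

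The rpt genes encode the ATPases that unfold the substrate, and 1 of 6 (16.7%) had a summit in both replicates, near the 15.6% of all genes. rpt-1 (WBGene00004501, V, 11980534 to 11982397, minus strand) was the one ATPase gene with a pooled summit, with 44.0 (rank 7146) 116 bp past the start and 38.7 (rank 1683) in replicate 1 at 56 bp upstream. Replicate 2 had no summit in its window. rpt-6 had summits in both replicates, at rank 4436 and 869 bp upstream in replicate 1 and at rank 3721 and 261 bp upstream in replicate 2, in peaks that did not overlap. The replicate 1 summit of rpt-6 was nearer to his-72, a gene for histone H3.3. rpt-3 (24.5) and rpt-5 (28.8) had a summit in replicate 1 alone, and that of rpt-5 lay 11 bp from the start of the divergent gene rad-8. rpt-2 and rpt-4 had no summit in the window, and the start of rpt-4 lies inside rpoa-49.

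Among the alpha ring genes, pas-5 had the next strongest peak of the group. pas-5 (WBGene00003926, I, 10566350 to 10567300, plus strand) had a pooled signal of 88.0 (rank 827) 854 bp upstream, 36.0 (rank 2170) in replicate 1 at 888 bp upstream and 54.2 (rank 557) in replicate 2 at 869 bp upstream. The peak thus ranked higher in replicate 2. The pooled summit lay 53 bp from the snoRNA gene F25H2.15, and a further pooled peak of 89.8 (rank 791) sat 1203 bp upstream, on the other side of that gene and outside the window. At the pas-5 start itself, 8 bp upstream, the pooled list had 46.0 (rank 6107) and replicate 2 had 27.4 (rank 4875) at 6 bp, with no summit of replicate 1 there. The part of the snoRNA gene in the stronger pas-5 peak was not tested. It was the 1 pooled summit of 13 at proteasome genes within 250 bp of a tRNA, snoRNA, snRNA or rRNA gene, against 276 of 4900 pairs of gene and summit over all protein-coding genes.

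Of the other alpha ring genes, pas-2 had summits in all 3 lists and the rest in 1 list or none. pas-2 had 47.1 (rank 5572) in the pooled list at 316 bp past the start, 24.0 (rank 9993) in replicate 1 at 311 bp and 22.7 (rank 9617) in replicate 2 at 478 bp. Its summit lay in coding sequence in the pooled and replicate 1 lists, and its neighbours D1054.1 and D1054.3 had it in their windows too. pas-1 (25.4, rank 6527) and pas-4 (23.1, rank 9104) had a summit in replicate 2 alone, pas-7 (31.2, rank 3823) in replicate 1 alone, and all of these lay inside the gene, 184 to 261 bp past the start. pas-3 and pas-6 had none.

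The beta ring genes had no peak above a pooled signal of 48.3 in the window. pbs-2 (WBGene00003948, I, 12967216 to 12968280, minus strand), whose yeast counterpart carries a protease site, had pooled summits of 48.3 (rank 5089) 412 bp past the start and 47.2 (rank 5503) at -758 bp from the start. The upstream one lay in coding sequence of the divergent gene eif-6, which encodes a ribosome assembly factor, 92 bp from its start, and replicate 2 had 33.3 (rank 2369) there. The summit of replicate 1 in pbs-2, of 33.6 (rank 2826), lay 528 bp past the start and just outside the window. pbs-3 (WBGene00003949, II, 4954480 to 4955427, minus strand) had 44.1 (rank 7077) 155 bp upstream in the pooled list and 31.7 (rank 2815) 152 bp upstream in replicate 2, in the 3′ UTR of ulp-2, a SUMO protease gene that ends 22 bp before pbs-3 begins. Replicate 1 had no summit in its window.

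The beta ring genes pbs-4, pbs-5 and pbs-7 had summits in both replicates and none in the pooled list. pbs-5 (WBGene00003951, I, 14719167 to 14720477, minus strand), the counterpart of the yeast subunit with chymotrypsin-like activity, had 21.5 (rank 14121) and 21.2 (rank 11904) in replicates 1 and 2, 161 and 124 bp past the start, near the bottom of both lists. pbs-7 (WBGene00003953, I, 8695205 to 8696301, minus strand) had 27.4 (rank 6212) 220 bp upstream in replicate 1 and 30.7 (rank 3200) 90 bp upstream in replicate 2, between it and the divergent gene F39H11.1. pbs-4 had 24.7 (rank 9149) 476 bp upstream in replicate 1 and 30.5 (rank 3281) 2 bp past the start in replicate 2, in peaks that did not overlap. With rpt-6 and rpn-8 these made 5 genes with a summit in both replicates and none in the pooled list (15.2%), a pattern seen in 2.35% of all genes. pbs-1 and pbs-6 had no summit in the window.

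**Figure D4:**
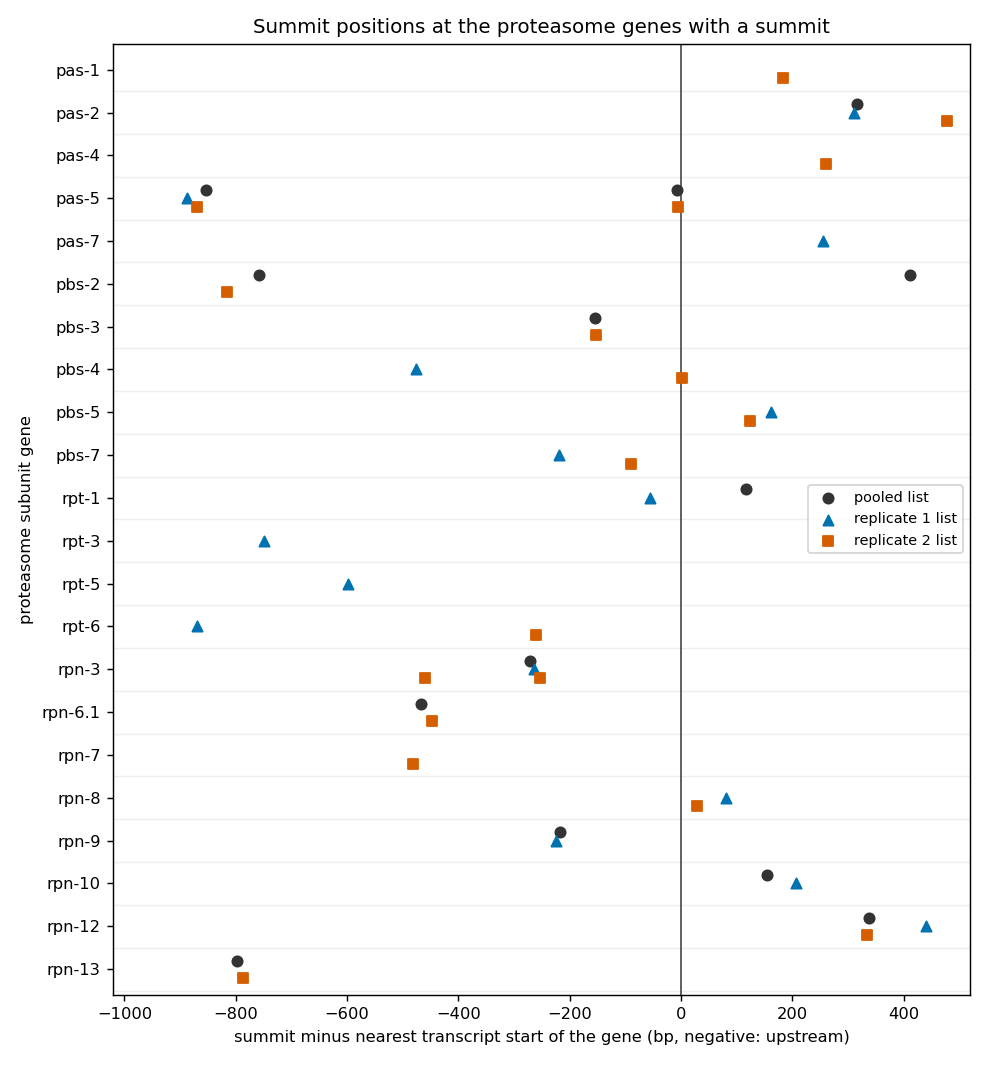
Distance of each summit from the nearest transcript start of its gene (x axis, bp, negative upstream) for the 22 proteasome genes with a summit in any of the 3 lists (rows), with a symbol for each list. The pooled summits run from 854 bp upstream at pas-5 to 412 bp past the start at pbs-2, and 8 of 13 lie upstream.

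The summits took no common place relative to the start. Of 13 pooled summits at proteasome genes 8 lay upstream (61.5%), against 68.8% over all protein-coding genes. Coding exons held 4 of the 13, introns 4, 3′ UTRs 1 and intergenic sequence 4, against 23.2%, 25.7%, 4.04% and 42.5% of the 4104 pooled summits at any protein-coding start. The distance from a start to the nearest summit on the chromosome had a median of 1182 bp over the 33 proteasome genes in the pooled list, against 3308 bp over all genes. In replicate 1 it was 869 bp against 1653 bp, and in replicate 2 787 bp against 2195 bp.

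Thresholded peaks lay outside the window of a few proteasome genes, each nearer to another gene. A thresholded peak of 98.4 (rank 645) lay 1170 bp upstream of pbs-5, in an intron of K05C4.2. One of 125 (rank 366) lay 1480 bp upstream of pbs-1 and 37 bp from the start of rpi-2. One of 118 (rank 426) lay 1818 bp upstream of rpn-12, in the 3′ UTR of rad-23 and 158 bp from the start of coa-7. Inside the genes beyond the window, the pooled list had 10 further summits in 9 proteasome genes (27.3%), against 17.3% of all genes. In 5 of them (pas-4, pas-6, rpt-1, rpt-6 and rpn-6.1, 15.2%) such a summit lay in a 3′ UTR, against 2.79% of all genes and 3.32% of the 16794 genes with an annotated 3′ UTR. The strongest of these was that of rpn-6.1 at 73.3, and rpn-6.1 alone had such a 3′ UTR summit in both replicates. pas-6 and rpt-1 had one in replicate 1 alone, and pas-4 and rpt-6 had one in neither replicate. The pooled 3′ UTR summits of rpt-1 and rpt-6 were nearer to the starts of snr-4 and glrx-5.

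Proteasome genes stand close to their neighbours, which bears on which gene a summit belongs to. The nearest gene upstream was divergent for 22 of 33 (66.7%), against 42.2% of all genes, with a median gap of 449 bp, against 1404 bp. Another gene on the same strand lay upstream of 10 (30.3%), against 50.9%. A pooled summit was found at 6 of the 22 divergent genes (27.3%), against 21.7% of all divergent genes, and at 5 of the 10 with a neighbour on the same strand (50.0%), against 20.2%. At each of those 6 (pas-2, pbs-2, rpn-3, rpn-6.1, rpn-9 and rpn-12) a summit was in the window of the divergent neighbour too. Their gaps were 88 to 677 bp and the neighbour's window reaches 1000 bp upstream, so a summit in such a gap lies in both windows. The shared summits of rpn-3 and rpn-9 lay in the gap, and the others inside the gene or its neighbour. The sharing was not counted over all genes, and the part of the gap in it was not tested. With each summit given to the protein-coding gene of the nearest start alone, 9 of 33 proteasome genes (27.3%) kept a pooled summit, against 17.6% of all genes, and rpn-3 and rpn-13 were lost to their neighbours.

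Of 43 other genes of protein degradation, listed by role, 17 (39.5%) had a pooled summit, against 21.0% of all genes, and 4 (9.30%) a thresholded one, against 2.35%. The genes were listed with earlier results of these data known, so these shares are descriptions of the list and not an unbiased contrast. The thresholded list holds the strongest pooled peaks, so the 4 genes on it necessarily had the highest pooled signals of the 43. They were cdc-48.1 (195, rank 98), a segregase ATPase that hands unfolded substrates to the proteasome, and ufd-3 (119, rank 421), a cofactor of CDC-48. The others were uba-1 (107, rank 537), the ubiquitin-activating enzyme, and ubq-2 (99.8, rank 627), which encodes ubiquitin fused to a ribosomal protein. The ubq-2 summit lay 447 bp from its start and was nearer to the start of frg-1, at 192 bp. Each of the 4 genes had a summit in both replicates, which a threshold on repeated ranks favours, so this is no separate evidence. Pooled summits were found at all 3 genes of ubiquitin and its activation, 2 of 5 of the SKN-1A pathway, 3 of 7 of the proteasome-bound cofactors and 3 of 7 of the CDC-48 complex. They were also found at 3 of 9 cullin ligase genes and 3 of 12 genes of the anaphase-promoting complex and separase (emb-30, fzy-1 and ify-1). The summit counted for the cofactor gene rad-23 is the one counted for rpn-12. With each summit given to the nearest start alone, 14 of 43 genes (32.6%) kept a pooled summit, against 17.6% of all genes. Among them were 2 of 7 cofactor genes and 2 of 3 genes of ubiquitin and its activation. The gene of separase (sep-1), the enzyme that frees sister chromatids by cutting the kleisin, had a summit in replicate 2 alone, of 21.6 (rank 11264). skn-1 itself, named after its values were seen, had a pooled signal of 65.7 (rank 1781), with 35.9 (rank 2185) in replicate 1 and 35.4 (rank 1885) in replicate 2.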

How the data were processed

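REC-8-GFP chromatin immunoprecipitation was measured in 2 biological replicates. The deposited peak lists give each peak a signal value by the authors' peak caller, called with a control per the file listings deposited with the samples and not scaled between lists. Peaks were called for each replicate and for both pooled. The names of the aligner and peak caller are not given in the sources used. Only ce11 lists were used.

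Summits were counted from 1 and set against transcript starts of Ensembl release 115 (WBcel235). The mitochondrial genome was left out. Members and lists were chosen with earlier results of these data known. Full values are given for members with a thresholded summit, the 10 with the highest pooled signal and those with overlapping peaks in both replicates, and other members more briefly. For genes of the pathway the rule was a thresholded summit or the 4 highest pooled signals. Shares for all genes stand beside the counts of proteasome genes in each list for the main window, and no test was run, since 1 group has no comparison. Letters came from the RefSeq genome. The joins were tested on simulated data, with Python 3.11.15, numpy 2.4.6 and matplotlib 3.10.9. Alternatives changed the window, the starts, the overlap rule, the strength of the peaks and the replicates.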

Additional observations from a re-analysis of the deposited data

How the results depend on the processing

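Of 75 alternative values 44 kept the count within 1.5 times or the median within its spread (3.13 for core and 0.484 for regulatory genes), and 31 moved. Some moves followed from the setting. Medians with 1 replicate are on another scale, and rpn-3, at rank 543 of 739, is not in the stronger part of the thresholded list. With 250 bp on each side of a start, the counts of proteasome genes with a summit were 0 thresholded (against 1), 5 pooled (11), 6 in replicate 1 (15), 7 in replicate 2 (16) and 3 in both (9), with 2 core and 3 regulatory genes in the pooled list and a median regulatory signal of 44.0. All genes fell too, with pooled shares of 15.2% for proteasome genes and 9.67% for all genes. The shares were 0% and 1.05% thresholded, 18.2% and 14.3% in replicate 1, and 21.2% and 12.2% in replicate 2. With a window from 2000 bp upstream to the end of the gene, the counts were 4 thresholded, 21 pooled, 26 in replicate 1 and 20 in both, with 10 core and 11 regulatory genes and a median regulatory signal of 56.9, and the pooled shares were 63.6% and 38.4%. Counting any base of a peak gave 2 thresholded genes, and the nearest start alone gave 0, against 1.75% of all genes. In the stronger part of each list, split at its middle rank, 0 thresholded and 4 pooled genes were left, 1 core and 3 regulatory. The counts in both replicates in these windows, for any base and in the stronger parts have no share over all genes beside them. Among the 739 strongest peaks of each replicate, 1 gene was left in replicate 1, 2 in replicate 2 and 1 in both. With the gene start alone the median regulatory signal was 49.4. With 1 replicate in place of both, its own list stood in for the pooled list and its 739 strongest peaks for the thresholded one. These repeat the replicate counts given above. They ran from 1 to 2 genes among the strongest peaks and from 15 to 16 in the whole list, with 6 to 9 core genes and 7 to 9 regulatory genes. The median signals, on the replicates' own scale, ran from 26.1 to 30.5 for core and from 28.8 to 29.4 for regulatory genes. The cause of these moves was not tested. No paired analysis was possible because the 2 samples form 1 group and no test was run. Depth is unknown, and a weak peak listed in 1 replicate and not in the other cannot be read as a difference between them.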
